A study of Mus musculus with 12 samples.

Results

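The control libraries of both experiments were set side by side: 3 libraries of MC38 tumors carrying a control hairpin and 3 libraries of bone-marrow-derived macrophages (BMDM) given PBS, 6 of the 12 libraries of the series. They were chosen by their labels and headings alone. MC38 is a mouse colon adenocarcinoma line, and the tumors grew under the skin of C57BL/6 mice from injected cells carrying a control short hairpin (shCtrl, labelled genotype WT). The tumor RNA is bulk RNA, so it can hold host cells, and fewer cells of a type cannot be told apart from less RNA per cell. For BMDM, which are macrophages grown from marrow progenitors in culture, the series' design text describes 4 h of LPS with IFN-γ and then 24 h in medium with choline. It does not spell out whether the PBS controls had the same first step. The matching treated libraries, MC38 shChrebp (3) and BMDM with 200 µM choline (3), enter below only where named. The labels do not say that replicates came from separate animals or cultures, so the spread between them may be technical.

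Macrophages and tumor cells are known to signal to each other. Tumor cells can release CSF1, IL-34 and chemokines such as CCL2, which sustain and draw macrophages through CSF1R and CCR2. LPS acts through TLR4 and NF-κB and induces TNF, IL-1β and chemokines, while interferons act through receptors of their own and induce antiviral genes. Macrophage identity rests largely on the transcription factor PU.1, encoded by Spi1. The series studies ChREBP, a glucose-responsive transcription factor of the tumor cells, and the supply of choline to macrophages. The levels below show which of these genes each control sample carried.

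Both tables give FPKM (fragments scaled to gene length and to the reads of the library), but each was made separately and with its own gene models. No test was therefore made between them, and only large differences of rank are described. Cell source, table and culture against growth in an animal cannot be told apart. A total of 14370 genes were paired, and 10824 of them reached a mean of 1 FPKM in at least 1 group and were ranked. Each gene's percentile is its rank within a library, from 0 for the lowest to 100 for the highest. A large level difference means that every library of one group lay at least 40 percentile points above every library of the other. By this rule 489 genes (4.52% of those ranked) were higher in tumors and 477 (4.41%) were higher in macrophages, 8.92% in either direction. Counts of called list members between these groups are to be read against these shares throughout. A rule of 8-fold on FPKM scaled to the same total, with a pseudocount of 1, gave 743 and 376, and the same rule after median-ratio scaling gave 386 and 352, so the split between the sides depends on the scaling. Libraries of 1 group were alike, with rank correlations of 0.995 to 0.998 over the ranked genes, against 0.640 to 0.646 between groups. The groups did not overlap for 89.1% of genes, so a lack of overlap alone says little. At the edge of the rule, Lrig1 was inside with a gap of 40.1 points and Fanca outside with 39.9 points, and on the macrophage side Rasa4 was inside with a gap of -40.1 points and Alkbh6 just outside. A count of 0 allows up to 3 reads, and this limit covers counting error only.

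**Figure D1:**
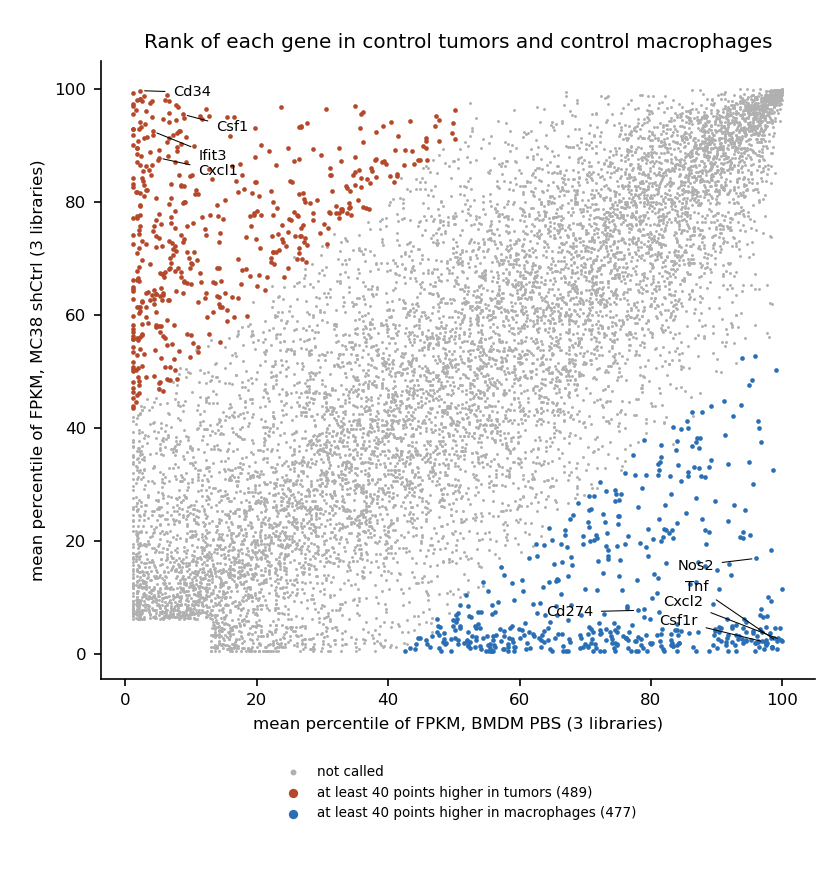
Mean percentile of FPKM in 3 MC38 shCtrl libraries (vertical axis) against 3 BMDM PBS libraries (horizontal axis), 1 point per gene over 10824 ranked genes. The 489 genes called higher in tumors fill the upper left corner and the 477 called higher in macrophages the lower right.

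Depth and markers were checked first. Tumor libraries held 15844794, 16614899 and 19177328 estimated counts, and macrophage libraries held 34995075 to 35394175 reads as recovered from FPKM. The macrophage libraries carried the defining genes of their label, with the CSF1 receptor Csf1r at 198, 211 and 199.6 FPKM, the surface receptor Adgre1 (F4/80) at 63.1, 63.2 and 61.3 FPKM and Spi1 at 148, 157 and 147 FPKM. Other markers of mature macrophages were low or without a row: Mertk, a receptor for dead cells, was at 0.00382, 0 and 0 FPKM, and the complement genes C1qa, C1qb and C1qc have no row. Proliferation genes were high in both groups, with Mki67 at a mean of 71.3 FPKM in macrophages and 117 FPKM in tumors.

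The tumor libraries held little leukocyte RNA. The 20 macrophage markers summed to 36.3 to 41.6 FPKM against 4786 to 4992 in BMDM. Ptprc, the CD45 gene of all leukocytes, had 7, 5 and 6 counts, and Adgre1 had 1, 1 and 0. Erythroid genes summed to 45.8 to 63.2 FPKM, from hemoglobin genes such as Hbb-bs at 28.9, 21.5 and 19.8 FPKM. Epithelial and intestinal markers, the lineage of a colon adenocarcinoma, were also low. Epcam was at 5, 0.586 and 0.329 FPKM and Cdx2, a transcription factor of intestinal epithelium, at 0.586, 0 and 0.069 FPKM. The library shCtrl 1 stood apart here, since its 15 epithelial markers summed to 37.1 FPKM against a low of 4.92, and its 14 intestinal markers to 33.5 FPKM against a low of 2.89. Without it, 504 genes were called higher in tumors and 491 higher in macrophages, and the collagen, YAP and TEAD and macrophage marker counts given below did not move. Mesenchymal genes were high instead, with the 13 markers summing to 4400.1 to 4706 FPKM. In BMDM the 7 of them with a row summed to 2049 to 2074 FPKM, so a high sum was not particular to the tumors. Of 7 ranked members 3 were called higher in tumors and 0 in macrophages, against 4.52% and 4.41% of all ranked genes. Endothelial markers were low, at 3.16 to 4.17 FPKM summed, with 10 of 11 under 1 FPKM. The tumors are called by their label here, although the markers of colon epithelium, leukocytes and endothelium are all low in them.

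**Figure D2:**
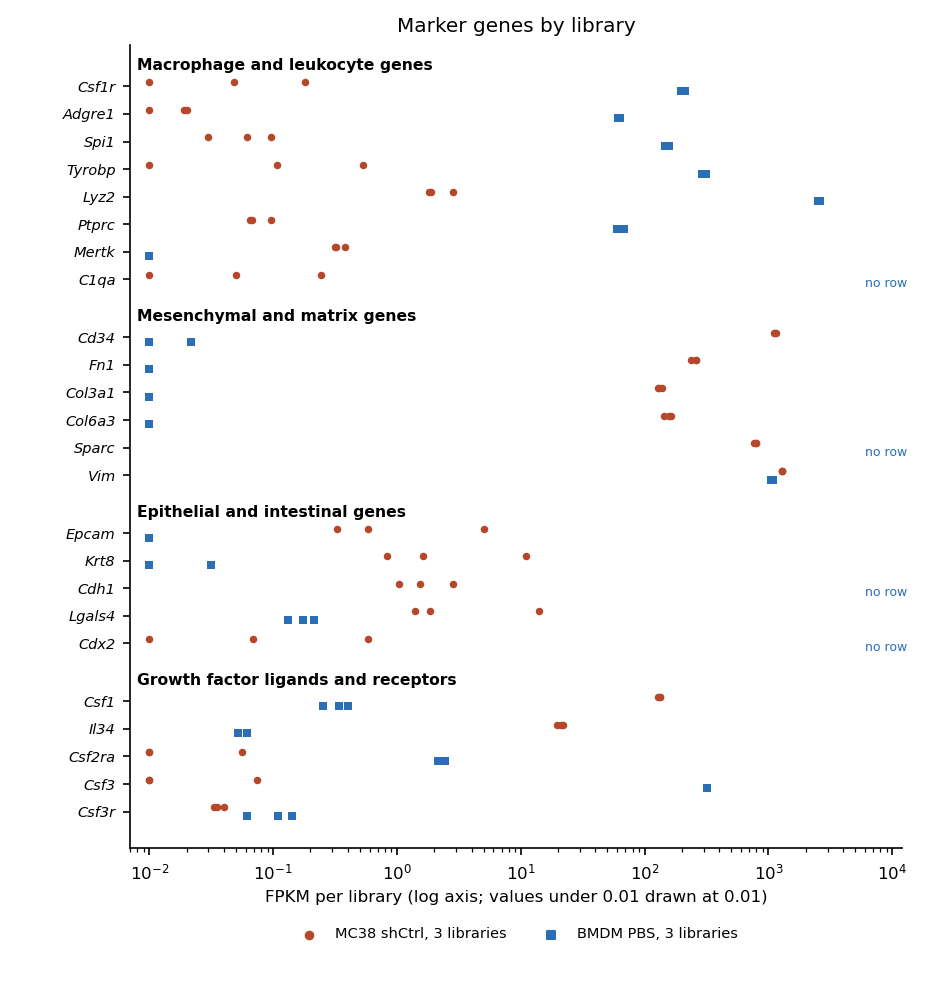
FPKM of marker genes on a log axis, with 1 circle per MC38 shCtrl library and 1 square per BMDM PBS library, and values under 0.01 drawn at 0.01. Most macrophage genes sit far to the right in BMDM alone, but Mertk does not and C1qa has no row there. Most mesenchymal and matrix genes sit far to the right in tumors alone, but Vim does so in both groups. The library shCtrl 1 is the rightmost tumor point for the epithelial genes Epcam and Krt8. "No row" marks genes with no row in the macrophage table.

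Genes of the matrix, the cytoskeleton and mesenchymal cells led the tumor side. Of 14 ranked collagens, 10 were called higher in tumors and 0 in macrophages, against 4.52% and 4.41% of all ranked genes. The median ranked collagen stood at percentile 85.0 in tumors and 2.1 in macrophages. Members that passed the level filter only through 1 group had to differ, so such counts describe the samples and support no statement about the list. Cd34, a sialomucin of progenitor, endothelial and some mesenchymal cells, was at 1116, 1140.5 and 1139 FPKM in tumors and at 0, 0 and 0.0217 FPKM in macrophages. It took percentile 99.7 in all 3 tumor libraries and no more than 4.4 in the macrophages. Ly6a, the stem cell antigen Sca-1, was at 660.1, 626 and 612 FPKM and had no reads in the 3 macrophage libraries. Serpinh1, a collagen chaperone, was at 488, 488 and 479 FPKM against 0.159, 0.0458 and 0.104 FPKM. Fn1, which encodes fibronectin, was at 238, 258 and 259 FPKM against 0.00333, 0.00335 and 0.00336 FPKM, which is 1 read in each macrophage library. These 4 genes were in the top 3 percent of every tumor library and near the floor of every macrophage library.

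Other highly ranked tumor genes had various functions. The gelatinase Mmp2 had a mean of 320.1 ± 5.19 FPKM, its inhibitor Timp2 251 ± 11.2 FPKM, and Pcolce, an enhancer of procollagen processing, 207 ± 2.33 FPKM (SD, n = 3). Cald1 (caldesmon), which binds actin, had 299 ± 9.48 FPKM, and Cavin1, a coat protein of caveolae, 191 ± 3.08 FPKM. Macrophage means of these 5 genes ran from 0 to 0.208 FPKM. Fstl1 (follistatin-like 1) at 405 ± 4.89 FPKM, the small heat shock protein gene Cryab at 187 ± 8.39 FPKM, the ubiquitin ligase gene Nedd4 at 283 ± 7.98 FPKM and Tm4sf1 at 219 ± 5.52 FPKM (SD, n = 3) complete the leading genes, together with Ifitm1 and Igfbp4. Among 16 ranked matrix glycoprotein and crosslinking genes 9 were called higher in tumors and 0 in macrophages. Of 16 ranked matrix proteases and inhibitors, 6 were higher in tumors and 2, Mmp9 and Adam8, in macrophages.

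Part of the tumor program could not be ranked. Of 10763 tumor genes at 1 FPKM or more, 552 (5.13%) have no row in the macrophage table, 546 of them protein-coding. That table lists no row without a read in any of its 6 libraries, and its lowest rows hold 1 read in all, whereas 5328 tumor rows are at 0 throughout. Whether an unlisted gene had no reads there or was not annotated cannot be told. The highest of them was Ly6c1, a Ly6-family surface antigen, at a mean of 939 FPKM. Of its 50-base words 36.5% also occur in another gene, so its reads may be shared. The group also held Sparc at 767, 787 and 788 FPKM, the matrix proteoglycan gene Bgn at a mean of 551 FPKM, Timp3 at 302 FPKM, the transcription factors Twist2 at 188 FPKM and Prrx1 at 131 FPKM, and Col1a2 at 159 FPKM. It held other kinds of gene too, such as the mesothelin gene Msln at 109 FPKM and the keratin gene Krt14 at 52.6 FPKM. All were picked after their values were seen, and functions were not counted over the 552 genes. Entering the 552 genes at 0 FPKM raised the number called higher in tumors to 586.

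YAP and TAZ, encoded by Yap1 and Wwtr1, are coactivators that drive growth and matrix genes with the TEAD transcription factors. Of 9 ranked members of this pathway 6 were called higher in tumors, and 6 more had no macrophage row, Yap1, Tead3 and the targets Ccn1, Ccn2, Ankrd1 and Amotl2. Wwtr1 was at 35.3, 34.2 and 33.9 FPKM against 0.0942, 0.213 and 0.107 FPKM. Tead1 was at 31.8, 37.5 and 34.3 FPKM against 0.00284, 0 and 0 FPKM. Axl, a TAM-family receptor tyrosine kinase and a TEAD target in human cells, was at 275, 281 and 279 FPKM against 0.0727, 0.0784 and 0.0735 FPKM. All 3 were above the macrophages in every library. Of 14 ranked receptor tyrosine kinases, 6 were called higher in tumors, Axl, Pdgfra, Epha2, Ephb4, Ddr1 and Ddr2, and Csf1r alone in macrophages. Over all ranked genes the shares were 4.52% and 4.41%. Fgfr1, at a mean of 46.2 FPKM in tumors, has no macrophage row.

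The CSF1 axis was split between the samples. Csf1, the growth factor that sustains macrophages, was at 129, 133 and 134 FPKM in tumors and at 0.339, 0.4 and 0.254 FPKM in macrophages. Il34, the second ligand of the same receptor, was at 19.6, 21 and 22.1 FPKM against 0.0615, 0.0619 and 0.0518 FPKM. Csf1r was at 0.179, 0 and 0.048 FPKM in tumors, which is 11, 0 and 4.32 estimated counts. Csf1 ranked high in the tumors, at a mean percentile of 95.5, and Csf1r ranked high in the macrophages. Il34 stood nearer the middle of the tumor libraries, between percentile 50 (13.6 to 13.7 FPKM) and percentile 75 (31.4 FPKM). The groups did not overlap for any of these genes. Csf3 (G-CSF), a neutrophil growth factor, ran the other way, at 0, 0 and 0.074 FPKM in tumors against 318, 318 and 316 FPKM in macrophages. Its receptor gene Csf3r was under 1 FPKM in both groups. Csf2 (GM-CSF) was at 0.552, 0.226 and 0.13 FPKM against 1.12, 1.06 and 1.55 FPKM.

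Other ligand and receptor pairs were split to different degrees. Cx3cl1 (fractalkine) was at 4.76, 4.18 and 4.9 FPKM in tumors and at most 0.00896 FPKM in macrophages, but its gap of 16.3 points stayed under the rule. Its receptor Cx3cr1 was at 19.5, 19.3 and 18.6 FPKM in macrophages against 0.04, 0 and 0.017 FPKM. The complement gene C3 was at 31.7, 27.1 and 31.2 FPKM in tumors against 3.38, 3.29 and 3.41 FPKM, while the receptors C3ar1 and C5ar1 were called higher in macrophages. Lgals9 (galectin-9) was at 133, 129 and 132 FPKM in tumors against 5.06, 6.03 and 4.78 FPKM, and its receptor Havcr2 (TIM-3) at 5.15, 4.56 and 4.12 FPKM against 10.3, 9.83 and 11 FPKM. Cd47, the signal that holds off phagocytosis, and its receptor Sirpa were present in both samples, at means of 65.8 and 41 FPKM in tumors and 22 and 73.6 FPKM in macrophages. Cd274 (PD-L1) was at 1.19, 1.38 and 1.58 FPKM in tumors and 28.4, 27.9 and 27.1 FPKM in macrophages, so that the macrophages ranked at least 68.8 points higher.

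The chemokine genes were divided between the samples. Ccl2, which draws monocytes, was high in both, at 283, 293 and 281 FPKM in tumors and 682, 646 and 679 FPKM in macrophages, percentiles of at least 98.1. Its receptor Ccr2 was under 1 FPKM on average in both. Ccl7 was likewise shared, at 91.6, 98.7 and 108 FPKM against 55.9, 51.9 and 53.4 FPKM. Ccl3 was the highest of the called macrophage genes, at 4369, 4379 and 4236 FPKM, against 0.247, 0 and 0.068 FPKM in tumors. Ccl4 was at 836, 843 and 843 FPKM against 0.382, 0 and 0.158 FPKM. Ccl3, Ccl4 and Ccl5 were the 3 of 9 ranked CC chemokines called higher in macrophages, and 0 of 9 were called higher in tumors. The neutrophil chemokines Cxcl1 and Cxcl2, neighbors on chromosome 5, went opposite ways. Cxcl1 was at 63, 57 and 55.2 FPKM in tumors against 0.0295, 0.0297 and 0.0597 FPKM. Cxcl2 was at 0.114, 0.054 and 0.047 FPKM in tumors against 1836, 1857 and 1805 FPKM. Their library values did not come near each other in either direction.

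Both promoters hold the same letters of the NF-κB motif, GGGA and TTTCC parted by any 1 base, on either strand, and so does that of Csf1, in windows from 250 bases before to 50 after the start of transcription (RefSeq, GRCm38.p6). They are shown because the 3 genes share the letters but not the sample in which they were high. Each line gives a stretch of 100 bases upstream of the start, 5′ to 3′ on the strand of the gene, with the matching letters in capitals. The stretches lie at chr5:90891129-90891228 (plus strand) for Cxcl1, chr5:90903757-90903856 (plus strand) for Cxcl2 and chr3:107760569-107760668 (minus strand) for Csf1.
Cxcl1: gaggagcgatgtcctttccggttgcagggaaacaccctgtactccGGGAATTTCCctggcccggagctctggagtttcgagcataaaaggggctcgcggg
Cxcl2: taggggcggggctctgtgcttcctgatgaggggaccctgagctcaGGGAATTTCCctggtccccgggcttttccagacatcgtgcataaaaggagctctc
Csf1: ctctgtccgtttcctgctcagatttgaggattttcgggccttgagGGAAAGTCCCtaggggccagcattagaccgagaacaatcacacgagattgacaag
The letters were found in 0.535% of the 8793 ranked genes with a window, in 1.07% of tumor-higher genes and in 1.92% of macrophage-higher genes (4 of 374 and 7 of 365). A match is a description of the letters and not of binding.

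LPS-inducible genes were high in the macrophages. Of 15 ranked genes of the LPS and IFN-γ list, 9 were called higher in macrophages and 1, Irf1, in tumors. All ranked genes gave 4.41% and 4.52%. Tnf was at 667, 676 and 649.8 FPKM in macrophages against 0.043, 0.082 and 0.036 FPKM in tumors. Acod1, which makes itaconate, was at 1192, 1184 and 1163 FPKM against 0.337, 0.459 and 0.557 FPKM. Nos2, the inducible nitric oxide synthase, was at 144, 138 and 148 FPKM against 3.55, 3.26 and 3.67 FPKM. Arg1 (arginase 1) was under 1 FPKM in both groups. Some genes that IFN-γ is known to induce were low in the same macrophages, which does not speak for all such genes. Cxcl9 was at 0, 0 and 0.00981 FPKM and Gbp2 at 0.0689, 0.0578 and 0.0813 FPKM. Irf1 was at 2.73, 2.47 and 2.52 FPKM and Ciita, the regulator of class II genes, at 0.00288, 0 and 0 FPKM. Cd74, the invariant chain of class II, was nevertheless at 299.7, 301 and 293 FPKM, whereas H2-Aa and H2-Ab1 were under 0.1 FPKM. The LPS list thus held both high and near-absent members in BMDM. Of 21 ranked Toll-like receptor and NF-κB genes 7 were called higher in macrophages and 0 in tumors, against the same shares of all ranked genes. Among the 7 were Tlr2, Cd14, Ly96 and Irak3.

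Interferon-stimulated genes were on the side of the tumors. Of 26 ranked members 15 were called higher in tumors and 1, Oasl1, in macrophages, against 4.52% and 4.41% of all ranked genes. The median member stood at percentile 75.3 in tumors and 15.4 in macrophages. Oasl2, an antiviral OAS-like protein, was at 55, 53.7 and 52.9 FPKM in tumors against 0.018, 0.00905 and 0.0273 FPKM. Zbp1, a sensor of Z-form nucleic acid, was at 33.3, 31.3 and 32.2 FPKM against 0, 0.0262 and 0 FPKM. Irf7, a transcription factor of the interferon response, was at 46.4, 46.3 and 45.9 FPKM against 0.991, 1.11 and 1 FPKM. Stat2 and Irf9, of the same pathway, were called in the same direction. Ifit3 was at 87.6, 85.1 and 88.2 FPKM against 0.0105, 0.0106 and 0.0532 FPKM, but 48.4% of its 50-base words also occur in another gene, so its reads may be shared. Oasl1 was at 5.84, 6.43 and 5.98 FPKM in tumors and 61, 59.9 and 60.1 FPKM in macrophages. Cxcl10 and Isg15 were detected in both groups and not called. Markers of T cells, NK cells and B cells summed to at most 2.07 FPKM for each list in any tumor library, and their part in the interferon result was not tested. Without shCtrl 1 the interferon list gave 17 of 26 for tumors.

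This pattern differed in the other tumor arm. With the shChrebp libraries in place of shCtrl, against the same 3 macrophage libraries, 3 of 25 ranked interferon-stimulated genes were called higher in tumors, where shCtrl gave 15 of 26. Collagens gave 10 of 14 with either arm, and the YAP and TEAD list 5 of 9 with shChrebp and 6 of 9 with shCtrl. With choline libraries in place of PBS, 16 of 26 interferon-stimulated genes were called higher in tumors, and 9 of 15 genes of the LPS list higher in macrophages. Over all ranked genes, 438 of 10754 were called higher in tumors with shChrebp and 515 of 10835 with choline, where 488 were higher in macrophages. These comparisons share libraries and were not tested against each other. Of the 489 tumor-higher genes, 413 (84.5%) were also called with shChrebp, and of the 477 macrophage-higher genes 422 (88.5%) were also called with choline.

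**Figure D3:**
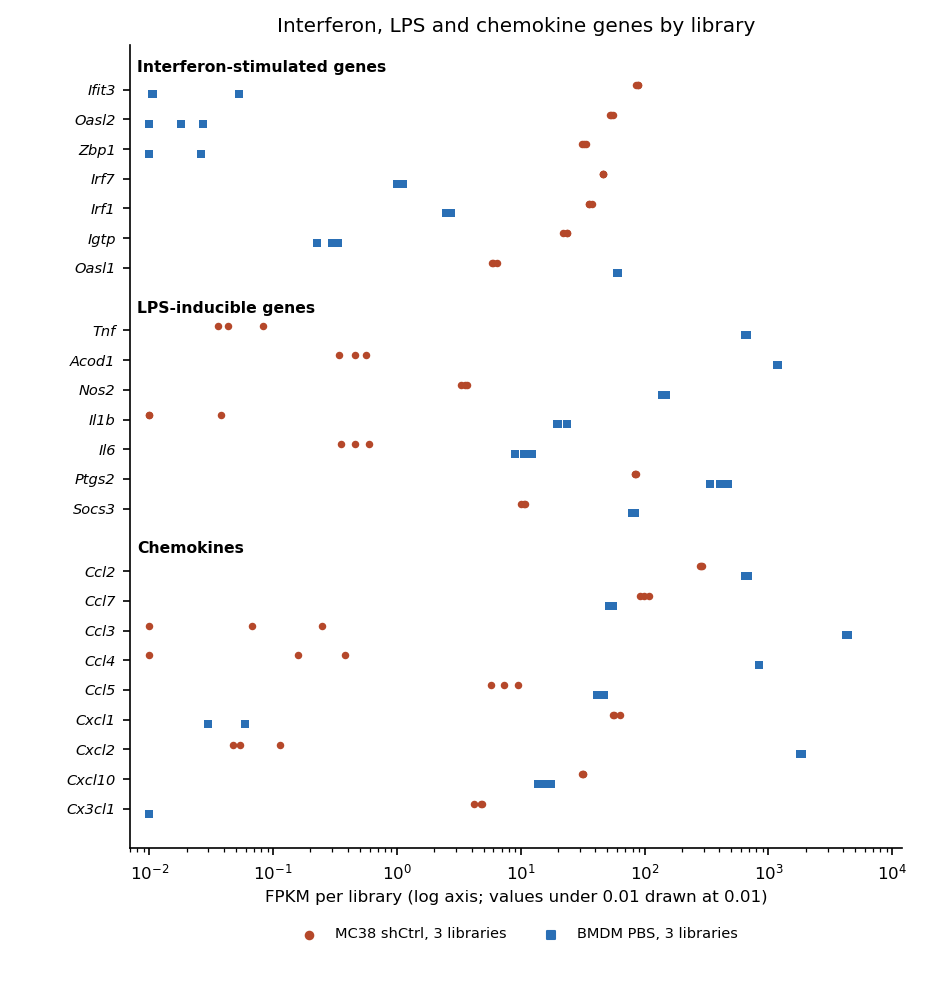
FPKM of interferon, LPS-inducible and chemokine genes on a log axis, with 1 circle per MC38 shCtrl library and 1 square per BMDM PBS library, and values under 0.01 drawn at 0.01. Interferon-stimulated genes sit to the right in tumors except Oasl1, LPS-inducible genes to the right in macrophages, and Ccl2 and Ccl7 are close together.

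The interferon-stimulated response element was searched on either strand as GAAA, any 2 bases and GAAA again. It occurred in 8.29% of 374 tumor-higher genes with a window, 5.21% of 365 macrophage-higher genes and 3.86% of all ranked genes. Ifit1, at 27.3, 26.5 and 26.2 FPKM in tumors against 0.192, 0.14 and 0.151 FPKM, holds 2 matches at chr19:34640749-34640848 (plus strand). Stat2, at 31.7, 35.9 and 33.4 FPKM against 3.05, 2.91 and 2.87 FPKM, holds 1 at chr10:128270248-128270347 (plus strand). They are shown as called members of the list with the letters before the start of transcription, with the matches in capitals.
Ifit1: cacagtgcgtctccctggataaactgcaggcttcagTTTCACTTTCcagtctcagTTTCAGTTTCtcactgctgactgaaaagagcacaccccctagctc
Stat2: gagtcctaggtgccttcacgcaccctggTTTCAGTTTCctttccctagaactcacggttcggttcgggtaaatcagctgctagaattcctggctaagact

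Genes of the phagocyte led the macrophage side. Of 19 ranked pan-leukocyte genes 18 were called higher in macrophages, and of 15 ranked macrophage markers 13, with 0 higher in tumors in both lists. Lyz2, the lysozyme gene, was at 2614, 2623 and 2523 FPKM in macrophages against 2.83, 1.88 and 1.82 FPKM in tumors. The scavenger receptor gene Msr1 was at 347, 327 and 372 FPKM against 0, 0.033 and 0.014 FPKM. Clec4e (Mincle), a receptor for microbial glycolipids, was at 193, 196 and 199 FPKM against 0, 0 and 0.021 FPKM. Each was above percentile 95 in all 3 macrophage libraries. Cd68, a lysosomal marker also used for macrophages, was at 19.1, 20.1 and 20.5 FPKM in tumors and 348, 356 and 329.5 FPKM in macrophages, a gap of 35.5 points, under the rule. Plek (pleckstrin) at 379 ± 14.5 FPKM, Hcls1 at 321 ± 11.6 FPKM, the siderophore-binding Lcn2 at 359.7 ± 6.29 FPKM and the LPS co-receptor Cd14 at 499 ± 10.5 FPKM were also among the leading genes (SD, n = 3). Lilrb4a, an inhibitory receptor of myeloid cells, was at 669.7, 629.6 and 685 FPKM, but 46.8% of its 50-base words occur in another gene, as do 24.2% of those of Lilr4b.

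Effector and metabolic genes of phagocytes followed. Of 7 ranked subunits and relatives of the NADPH oxidase, 5 were called higher in macrophages, among them Cybb and Rac2, and 0 in tumors. The shares of all ranked genes were 4.41% and 4.52%. Cybb, the catalytic subunit, was at 227, 213 and 236 FPKM against 0.08, 0.013 and 0.044 FPKM. Lpl (lipoprotein lipase) was at 218, 211 and 219 FPKM against 0.061, 0 and 0.051 FPKM. Slc7a11, the cystine transporter, was at 72.1, 68.9 and 81.2 FPKM against 5.5, 4.79 and 5.23 FPKM, and Cth, which makes cysteine, at 116, 119.8 and 112 FPKM against 8.28, 7.13 and 8.62 FPKM. On the side of the tumors, the quinone reductase Nqo1 was at 55.2, 56.2 and 54 FPKM against 0.143, 0.212 and 0.196 FPKM. Of 9 ranked osteoclast and fusion genes 5 were called higher in macrophages, against 4.41% of all ranked genes. Among them were Dcstamp at 28.6, 28.7 and 26.6 FPKM and Ctsk at 31.4, 30.8 and 30.6 FPKM.

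**Figure D4:**
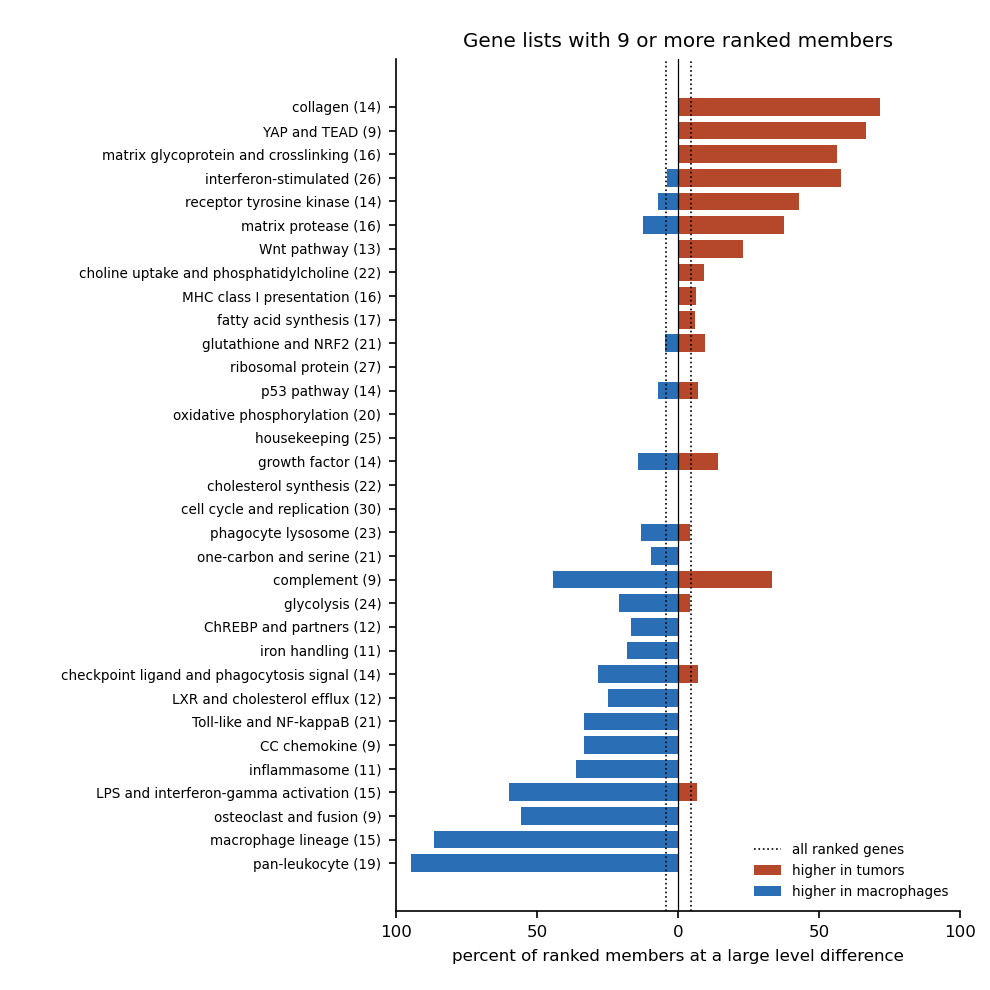
Percent of the ranked members of each list that were called higher in tumors (right) or in macrophages (left), for lists with 9 or more ranked members, whose number is in brackets. The dotted lines mark 4.52% and 4.41% of all ranked genes. Leukocyte lists reach farthest to the left, collagens and YAP and TEAD genes farthest to the right, and the ribosomal, housekeeping, cell cycle, cholesterol and oxidative phosphorylation lists have no bar.

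Letters of the PU.1 motif, searched as GAGGAAGT on either strand, occurred in 10.7% of 365 macrophage-higher genes with a promoter window, in 1.87% of 374 tumor-higher genes and in 3.78% of all ranked genes. Letters of the TEAD motif, ACATTCC, occurred in 2.19%, 5.61% and 2.99% of the same groups. Other searched letters did not part the sides in this manner. Those of AP-1, TGANTCA, occurred in 10.1%, 12% and 6.02%, and those of the E-box, CACGTG, in 8.77%, 7.75% and 12%, so that both called groups lay on the same side of all ranked genes. These shares describe called genes chosen by rank and were not tested. Vav1, a leukocyte exchange factor at 33.5, 34.4 and 32.5 FPKM in macrophages against 0.023, 0 and 0.037 FPKM in tumors, holds the PU.1 letters at chr17:57279000-57279099 (plus strand). Axl holds the TEAD letters at chr7:25788884-25788983 (minus strand). The pair shows 1 match from each side, in capitals.
Vav1: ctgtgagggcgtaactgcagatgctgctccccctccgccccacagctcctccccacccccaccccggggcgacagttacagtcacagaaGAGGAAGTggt
Axl: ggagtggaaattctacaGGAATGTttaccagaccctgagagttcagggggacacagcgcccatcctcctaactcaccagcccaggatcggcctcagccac

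Paralog families offer a comparison that does not depend on how the tables were scaled to each other, since each member is given as a share of its family's summed FPKM within a library. Shares still depend on reads that genes share and on the gene lengths of each table. Those lengths were within 1.5 times for 64.42% of genes with both. Of 40 families with at least 1 FPKM in both groups, 17 had another leading member in macrophages than in tumors. Plastins, which bundle actin, were the clearest case. Pls3 took 99.4% ± 0.277 of plastin FPKM in tumors and 7.97% ± 0.362 in macrophages, and Lcp1 took 0.272% ± 0.0499 and 92% ± 0.365 (SD, n = 3). Among Rac GTPases, Rac1 took 98.3% ± 0.311 in tumors and 42.5% ± 0.857 in macrophages, where Rac2, the hematopoietic form, took 57.2% ± 0.885. The level of Rac1 itself was similar in rank, at a mean percentile of 95.7 and 94.8. Coro1a, the leukocyte coronin, took 0.307% ± 0.0578 of coronin FPKM in tumors and 66.8% ± 0.474 in macrophages.

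Several signaling families, but not all, split in the same manner. Phospholipase C gamma was Plcg1 for 98.3% ± 0.148 in tumors, and Plcg2 for 88.3% ± 0.777 in macrophages (SD, n = 3). Of Src-family kinases, Src, Fyn and Yes1 took 46.2%, 30.8% and 19.2% in tumors, and Lyn took 65.7% in macrophages. Among interferon regulatory factors, Irf7 led with 31.8% ± 0.625 in tumors and Irf5 with 32.5% ± 1.24 in macrophages. Cyclooxygenase was 67.8% ± 0.66 Ptgs1 in tumors and 99.9% ± 0.00833 Ptgs2 in macrophages. Ptgs2 itself was high in both, at 83.2, 85.6 and 83.8 FPKM and at 409, 334 and 468 FPKM. Itgb2, the leukocyte integrin beta chain, took 48.9% ± 0.603 of integrin beta FPKM in macrophages and 0.176% ± 0.0283 in tumors, where Itgb7 (49.1% ± 0.523) and Itgb1 (39% ± 0.219) led. Other families kept their leading member, such as D-type cyclins (Ccnd1), glucose transporters (Slc2a1), Janus kinases (Jak1), PI3-kinase catalytic subunits (Pik3cb) and TGF-beta ligands (Tgfb1). Hexokinases (Hk1) and galectins (Lgals1) kept theirs too, but their shares moved. Hk1 took 71.6% in tumors and 36% in macrophages, where Hk2 took 33.1% and Hk3 30.9%. Lgals1 took 80.7% in tumors and 48.5% in macrophages, and Lgals3 took 14% and 44.9%. Slc2a1 took 84.4% ± 0.584 in tumors and 84.4% ± 0.449 in macrophages.

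**Figure D5:**
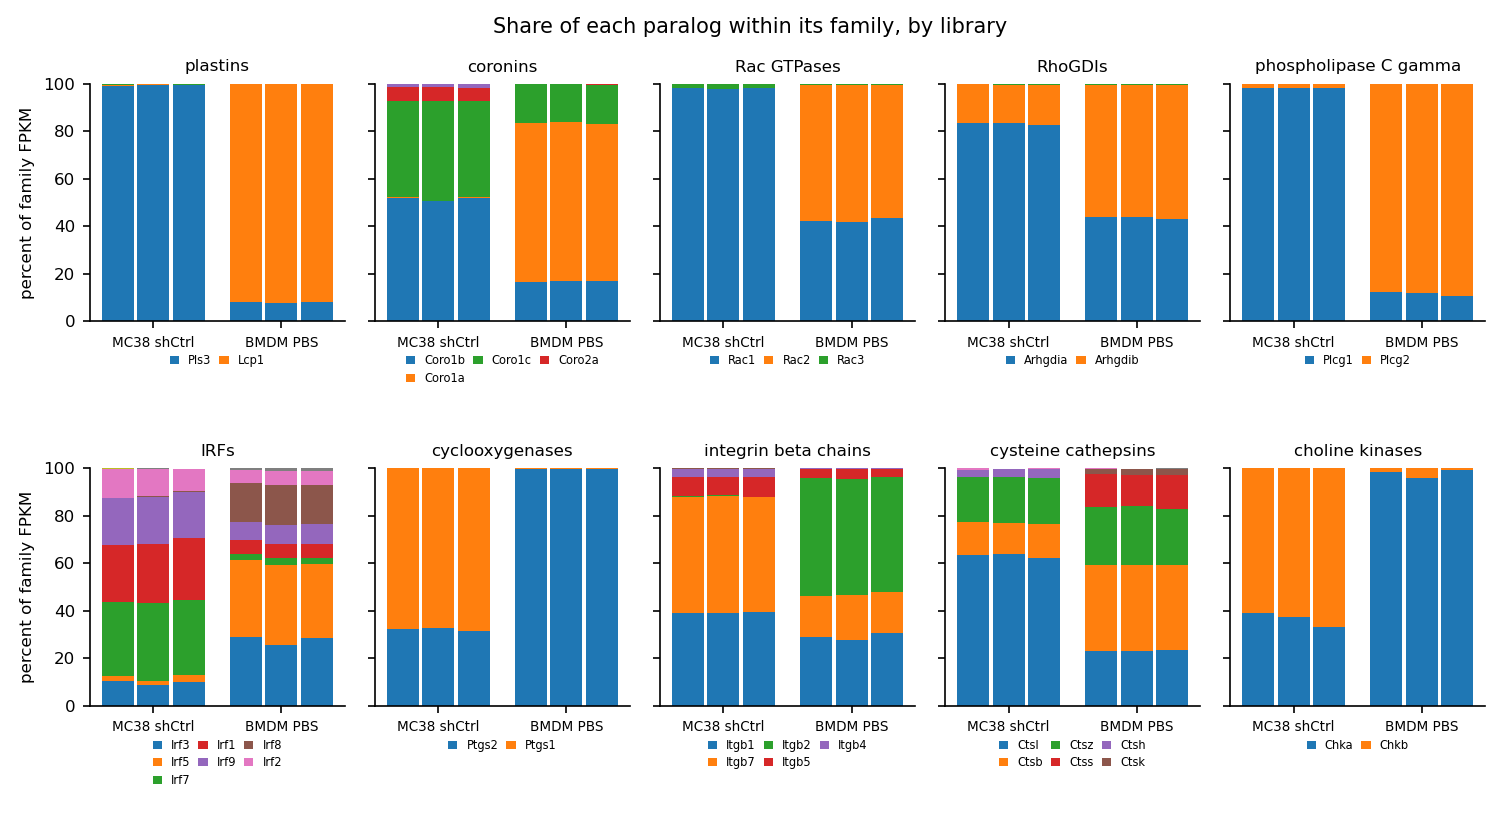
Share of each member in the summed FPKM of its family, with 1 stacked bar per library (3 MC38 shCtrl on the left of each panel, 3 BMDM PBS on the right) and members of at least 2% in any library in the key. Bars of 1 group are nearly the same, while the leading color changes between groups in all 10 families drawn.

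Genes of choline use were called about as often as ranked genes at large. Of 22 ranked genes of choline uptake and phosphatidylcholine synthesis, 2 were called higher in tumors, Sgms2 and Chkb, and 0 in macrophages, against 8.92% of all ranked genes in either direction. Slc44a1, the main choline transporter-like protein, was at 38, 35.2 and 36.2 FPKM in tumors and 13.2, 14 and 15.2 FPKM in macrophages, a gap of 13.8 points. Chka, the kinase that starts phosphatidylcholine synthesis, was at 9.16, 9.78 and 9.38 FPKM against 3.75, 3.73 and 3.76 FPKM, a gap of 8.3 points. Pcyt1a, the next and rate-limiting step, was at 21.7, 20.5 and 22.6 FPKM against 21.2, 21.6 and 20.2 FPKM. Its FPKM ranges overlapped, while by percentile the macrophages lay higher, with a gap of -5.0 points. Sgms2, a sphingomyelin synthase, was at 18.8, 19.1 and 20.7 FPKM in tumors and 0, 0.0042 and 0 FPKM in macrophages, where its relative Sgms1 was at 15.5, 15 and 15.7 FPKM. Chkb was at 14.4, 16.4 and 18.8 FPKM against 0.0643, 0.162 and 0.0325 FPKM, but 45.1% of its words occur in another gene. It took 63.5% ± 2.89 of choline kinase FPKM in tumors and 2.24% ± 1.72 in macrophages (SD, n = 3).

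ChREBP itself was barely detected in tumors. Mlxipl, the gene of ChREBP, was at 0.215, 0.019 and 0.016 FPKM in tumors, from 3, 1 and 1 counts, and has no macrophage row. Its relative Mlxip (MondoA) was at 6.54, 7.29 and 6.72 FPKM against 9.07, 9.39 and 8.85 FPKM, and their shared partner Mlx at 15.3, 15.6 and 17.2 FPKM against 28.8, 30 and 28.1 FPKM. Neither was called. Of 12 ranked genes of ChREBP and its partners 2 were called higher in macrophages, against 4.41% of all ranked genes. They were Mxd1 and Txnip, a target of MondoA and ChREBP. Txnip was at 14.4, 12.9 and 12.1 FPKM in tumors and 129, 125 and 121 FPKM in macrophages.

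Some levels differed without a large difference of rank. Gapdh was at 1844, 1785 and 1792 FPKM in tumors and 45.9, 45.3 and 43.7 FPKM in macrophages, although both rank above percentile 85. Of its 50-base words 26.8% occur in another gene, and the treatment of such reads in each table was not stated. H2-K1, a class I gene, was at 384, 402 and 396 FPKM against 22.6, 23.1 and 22.3 FPKM, a gap of 24.8 points. Of 16 ranked class I presentation genes 1 was called, Nlrc5, higher in tumors. None of 30 cell cycle, 20 oxidative phosphorylation, 22 cholesterol synthesis and 27 ribosomal protein genes that were ranked was called in either direction.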

How the data were processed

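Total RNA was sequenced in 3 MC38 shCtrl tumor libraries and 3 BMDM PBS libraries. The authors deposited FPKM values and estimated counts per Ensembl gene for the tumors, per the file headers, and FPKM values per gene for BMDM (this unit was read from the values). Per the submitters' processing notes, reads were placed on GRCm39. What aligner, counter and gene models were used is not given in the sources used here. Of the BMDM columns, 2 carry the same heading and were used as PBS libraries a and b. Tumor identifiers were turned into symbols with GENCODE vM21 and paired with BMDM rows by symbol (14100) or gene number (270). Reads behind the BMDM FPKM were recovered from the step that 1 read makes at that gene, whole within 0.1 reads, in 19494 of 19496 rows. Where both lengths could be had (11185 genes), the median ratio of BMDM to tumor length was 1.21, and 64.42% were within 1.5 times. Between replicates the chi-square per gene was 1.95 to 14.7, above counting noise, and each library was counted once.

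FPKM values were ranked within each library (Python 3.11.15), and no count model and no test was used between tables. The members, the gene lists and the motifs were chosen with earlier results of these data known, and the promoter stretches shown after their matches were seen. Named are, in each direction, the 15 called genes with the highest mean FPKM and the 10 with the widest gap, without unnamed models, ribosomal, histone and pseudogene rows, then members of the 56 lists and 45 paralog families and the study's own genes, as far as room allows. Words of 50 bases shared with another gene were counted in GENCODE transcripts. The recovery of reads was tested on simulated data.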

Additional observations from a re-analysis of the deposited data

How the results depend on the processing

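Both counts stayed within 1.5 times of 489 and 477 under most settings. Ranking over all rows of each table gave 236 genes higher in tumors. A gap of 30 points gave 777 in tumors, and a gap of 50 points gave 307 in tumors and 316 in macrophages. An 8-fold rule after scaling libraries to the same total gave 743 in tumors with a pseudocount of 1 and 1159 with 0.1 (376 and 531 in macrophages), but 386 and 352 after median-ratio scaling. Keeping genes whose lengths agree within 1.5 times ranked 6611 of 10824 genes and gave 214 and 220. It gave 11 families of another leading member in place of 17. A length could be had only for genes with enough reads in both tables. This setting therefore also dropped genes nearly unread in 1 table, as many called genes are, and is not a check of length alone. Both counts of genes fell by a larger share than the number of ranked genes, and the part of each reason was not tested. Leaving out 1 library at a time gave 492 to 504 genes in tumors, 478 to 491 in macrophages and 16 to 17 families. Dropping genes with 20% or more shared words, a choice made after seeing the data, gave 454 and 456, and dividing the reads of both tables by the tumor gene lengths gave 425 and 367. For 33 genes named by rank, the 24 settings gave 691 values, since some genes have none under some settings. Of these values 0 were reversed, but the genes were picked for high FPKM or wide gaps in these same libraries. A reversal was therefore hardly possible, and the 0 gives no support. No paired analysis was possible because 2 PBS columns share a heading and carry no replicate number, and the result comes from no test. Genes under about 1 FPKM rest on few reads, and their order is not resolved at this depth.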
